A study of Mus musculus with 10 samples.

Results

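The Toll-like receptors and co-receptors described here are 10 genes, Cd14, Ly96, Tlr1, Tlr2, Tlr4, Tlr6, Tlr7, Tlr8, Tlr9 and Tlr13. They were taken by symbol from a count table of 52636 Ensembl genes, and all 10 were found and passed the filter on low counts. The series holds RNA sequencing of nonclassical monocytes, the patrolling monocyte subset, sorted from mouse bone marrow. The 5 WT libraries came from LAIR1+/+ animals and the 5 LAIR1KO libraries from LAIR1-/- animals, which lack the inhibitory collagen receptor LAIR1. No treatment was given, and the labels state no strain, age or sex and do not say how the allele was made or whether each library is a separate animal. Per the labels, each RNA sample came from 5000 to 10000 cells at a sort purity of 98%.

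Toll-like receptors recognise conserved microbial molecules. CD14 is a surface and soluble protein that takes lipopolysaccharide from its carrier LBP and hands it to the complex of TLR4 and MD-2, the product of Ly96. TLR2 pairs with TLR1 or TLR6 and binds bacterial lipoproteins. TLR7, TLR8, TLR9 and TLR13 sit in endosomes and read nucleic acids, where the chaperone UNC93B1 brings them and endosomal proteases trim their ectodomains.

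Library totals ran from 12106209 to 15356924 counts. Lair1, the targeted gene, held 4230 to 5579 counts in each WT library and 0 to 10 in each LAIR1KO library, so every library matched its label. The 10 nonclassical monocyte markers summed to 8760 to 11668 CPM (read counts scaled to library size) in WT and 7203 to 9608 in LAIR1KO. Of these 10 markers 0 passed the test (edgeR adjusted p under 0.05), 3 had an unadjusted p under 0.05, and DESeq2 and limma voom each called 0. All 10 nevertheless had a log2 fold change (LAIR1KO minus WT) below 0, with a median of -0.26. Over all tested genes 50.3% were below 0, the median was 0.00 and 6.79% passed. Some markers of other cells did pass. All 8 tested myeloid progenitor markers were higher in LAIR1KO, with summed levels of 524 to 1393 CPM in WT and 3184 to 6712 in LAIR1KO. Of 9 tested resident macrophage markers 7 were lower. Adgre1 did not pass (edgeR adjusted p = 0.0947). Cd163 did not pass either and went the other way, with a log2 fold change of 0.77 (edgeR adjusted p = 0.125). The macrophage markers summed to 1559 to 2095 CPM in WT and 864 to 1084 in LAIR1KO, with Timd4 near 0 in every library. In bulk RNA, fewer cells of a type and less RNA per cell cannot be told apart.

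Tlr1 and Tlr6 are neighbours on chromosome 5 (GRCm38, minus strand; Tlr1 64924679 to 64933563, Tlr6 64952031 to 64960097), and their coding sequences are partly identical. The sequences below, from GENCODE M21 transcripts, are shown because reads from the shared stretch could be given to either gene. The longest identical run is 229 bases in the coding part of the last exon of each gene, at chr5:64925537-64925765 in Tlr1 (exon 4) and chr5:64953828-64954056 in Tlr6 (exon 2):
Tlr1 and Tlr6, shared run: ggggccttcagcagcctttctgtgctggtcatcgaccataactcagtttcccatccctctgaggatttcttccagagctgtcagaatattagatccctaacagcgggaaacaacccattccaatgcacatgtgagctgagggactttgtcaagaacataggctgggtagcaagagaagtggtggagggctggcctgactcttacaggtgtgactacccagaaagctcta
Upstream the genes can be told apart. In the 150 bases just before the first long identical run, at chr5:64925940-64926089 in Tlr1 and chr5:64954231-64954380 in Tlr6, capitals mark the 64 positions where they differ:
Tlr1, upstream window: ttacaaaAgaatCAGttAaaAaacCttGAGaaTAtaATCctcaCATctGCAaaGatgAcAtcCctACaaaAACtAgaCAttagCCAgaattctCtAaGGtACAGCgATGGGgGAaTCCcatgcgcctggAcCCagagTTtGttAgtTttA
Tlr6, upstream window: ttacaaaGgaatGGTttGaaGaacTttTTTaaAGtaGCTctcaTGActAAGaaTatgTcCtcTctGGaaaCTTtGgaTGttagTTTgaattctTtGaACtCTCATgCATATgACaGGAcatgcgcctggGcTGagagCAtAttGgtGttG
Aligned without gaps, the 2 coding sequences were 93.1% identical from the first shared run to the end (1086 positions) and 40.7% identical before it (1293 positions). The 40.7% depends on this alignment, which allows no insertion or deletion. The 150-base window shown was 57.3% identical. Of all 50-base words in the transcripts of each gene, 454 were common to both, which is 13.6% of the words of Tlr1 and 12.3% of those of Tlr6. Another 59 words of Tlr1 occurred in other genes. How the authors assigned such reads is not given in the sources used here, so the values of Tlr1 and Tlr6 are less certain than the others. No 50-base word of the other 8 genes occurred in another gene, except 12 words of Tlr4, and no exon of any of the 10 genes overlapped an exon of another gene.

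Per kilobase of exon, the scale on which genes can be compared, Tlr13 stood highest and Tlr9 lowest. Tlr13, a mouse endosomal receptor for bacterial ribosomal RNA, was at 173 ± 15.3 CPM per kilobase in WT (SD, n = 5 here and below) and 161 ± 21.9 in LAIR1KO. It made up 48.1% ± 2.69 of the summed per-kilobase level of the 8 Tlr genes in WT and 50.2% ± 2.59 in LAIR1KO. Tlr2 followed at 76.7 ± 14.5 in WT, below Tlr13 in all 5 libraries. Cd14 (49.0 ± 5.22) and the single-stranded RNA receptor Tlr7 (45.1 ± 3.83) overlapped in range, and Cd14 was above Tlr7 in 4 of 5 WT libraries and in 1 of 5 LAIR1KO libraries. Ly96 (33.7 ± 4.06) and Tlr8 (32.7 ± 3.49) could not be ordered, with Ly96 above Tlr8 in 3 of 5 WT libraries.

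Tlr4, Tlr1 and Tlr6 formed a lower tier in WT. Tlr4 stood at 12.4 ± 1.40 CPM per kilobase, Tlr1 at 10.3 ± 3.01 and Tlr6 at 8.36 ± 1.18, with overlapping ranges between neighbours. In LAIR1KO, Tlr1 (5.93 ± 1.45) lay below Tlr6 (9.21 ± 1.67) in all 5 libraries, whereas in WT it lay above in 4 of 5. Tlr9, the receptor for unmethylated CpG DNA, was at 0.654 ± 0.405 in WT and 0.411 ± 0.185 in LAIR1KO. The positions of Ly96 and Tlr7 depend on the length used. With the longest annotated transcript in place of all exons, Ly96 stood at 51.7 in WT, level with Cd14 at 51.7 and above Tlr7 at 47.3. The other 8 genes kept their positions, with Tlr4 at 17.0.

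**Figure D1:**
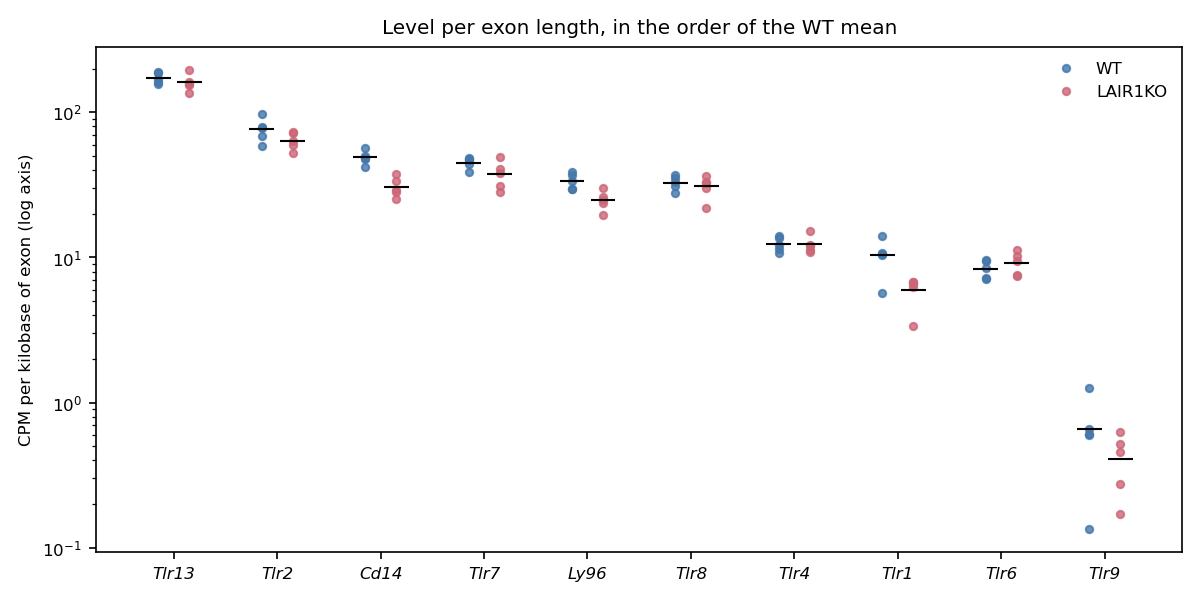
CPM per kilobase of exon on a log axis for the 10 genes, ordered by their WT mean. Each point is 1 library (5 WT, 5 LAIR1KO) and each black line a group mean; Tlr13 is highest at 173 in WT, and Tlr9 lowest at 0.654.

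The comparison of LAIR1KO with WT asks whether the loss of LAIR1 goes with altered receptor transcripts. Of the 10 genes 1, Cd14, passed the test in the fit of all 13469 tested genes (edgeR quasi-likelihood test, two-sided, Benjamini-Hochberg adjusted p under 0.05), and it was lower. Among all tested genes 6.79% passed, 1.68% as lower and 5.11% as higher genes. Log2 fold changes, given as LAIR1KO minus WT ± SE, were below 0 for 9 of the 10 genes and for 50.3% of all tested genes. The median was -0.26 over the 10 genes and 0.00 over all tested genes. A shift of this size was not particular to the receptors: the 10 nonclassical monocyte markers also had a median of -0.26, with all 10 below 0.

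Cd14, the lipopolysaccharide co-receptor, stood at 82.9, 72.6, 84.0, 97.8 and 87.0 CPM in WT replicates 1 to 5. In LAIR1KO replicates 1 to 5 it stood at 65.6, 58.6, 50.5, 48.6 and 43.5 CPM. Every LAIR1KO library lay below every WT library, a separation that 2.06% of all tested genes showed in this direction and 7.66% in either. The mean went from 84.9 ± 9.03 to 53.3 ± 8.76 CPM, with a log2 fold change of -0.67 ± 0.12 (edgeR adjusted p = 0.00671), a fall of 37.1% with a 95% interval of 24.2% to 47.8%. Without WT replicates 1 and 4 together the log2 fold change was -0.61 and no longer passed (adjusted p = 0.0588), in a fit that called 2.4% of its genes. Without LAIR1KO replicates 4 and 5, which had the highest progenitor markers, it was -0.54 and passed (adjusted p = 0.0456; 2.67% of genes called).

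Ly96, which encodes the lipid-binding chain MD-2, stood at 39.4, 37.8, 30.5, 34.2 and 30.3 CPM in WT and at 26.7, 25.6, 31.0, 24.1 and 20.1 in LAIR1KO. LAIR1KO replicate 3 lay inside the WT range and the other 4 LAIR1KO libraries lay below it. The log2 fold change of -0.43 ± 0.14 did not pass (edgeR adjusted p = 0.0806; 95% interval -0.73 to -0.14). Leaving out LAIR1KO replicate 3 gave an adjusted p of 0.0371 (8.56% of genes called), and DESeq2 gave 0.0206 (11.5% called). Tlr4, the signalling receptor of the complex, stood at 78.5, 67.8, 60.0, 75.5 and 63.7 CPM in WT and 60.5, 62.9, 68.2, 84.8 and 66.7 in LAIR1KO. These values overlapped throughout. Its log2 fold change was -0.01 ± 0.12 (adjusted p = 0.973), with a 95% interval of -0.26 to 0.24, and it turned to 0.12 when libraries were scaled by their totals.

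**Figure D2:**
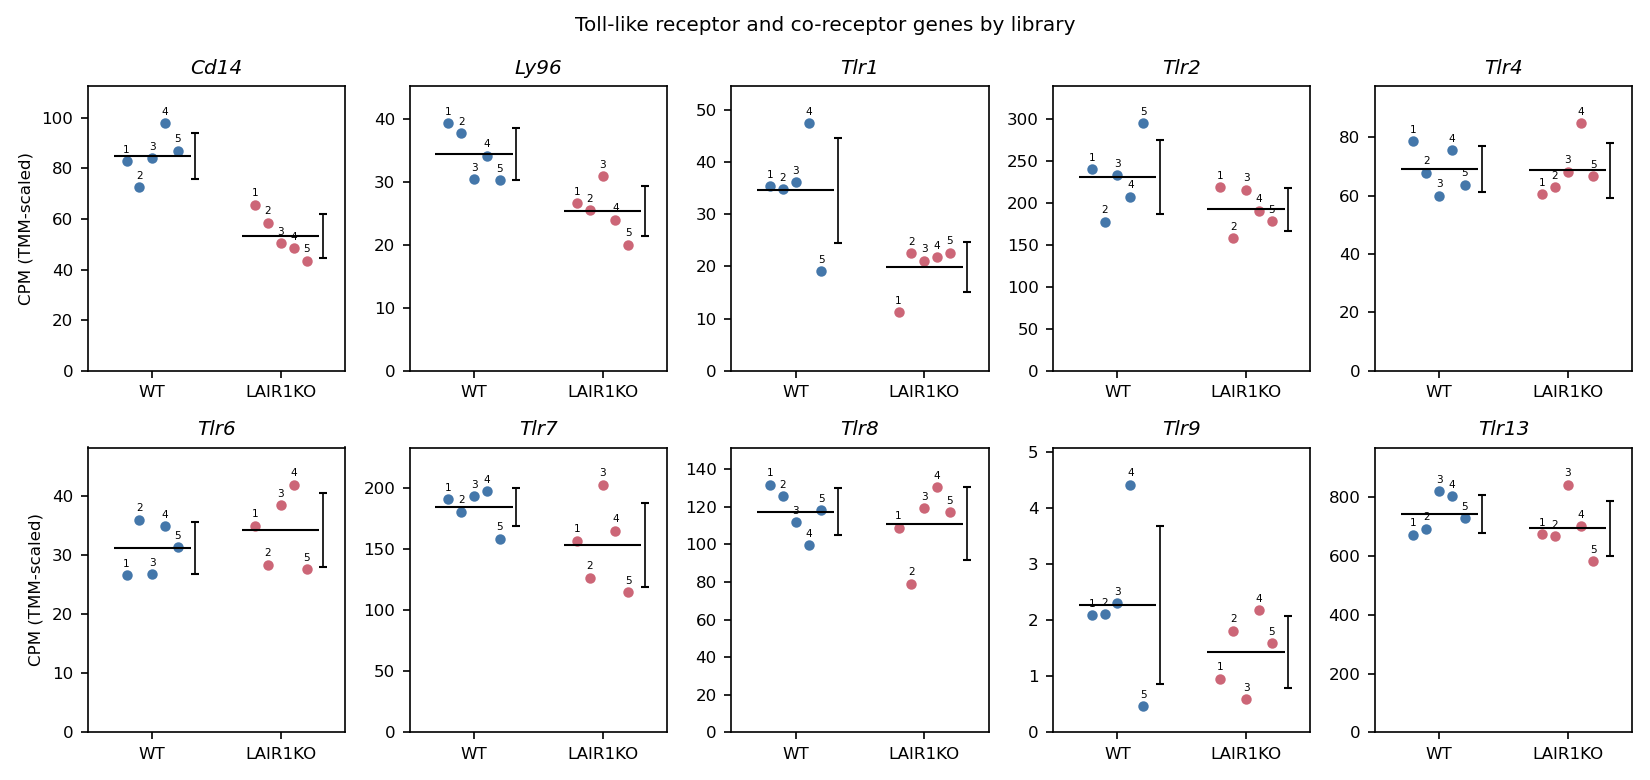
CPM of each of the 10 genes in the 5 WT and 5 LAIR1KO libraries, with the replicate number above each point, the mean as a line and the SD as a bar. The groups are separate for Cd14, at 72.6 to 97.8 CPM in WT and 43.5 to 65.6 in LAIR1KO, and overlap for the other 9 genes.

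Among the lipoprotein receptors, Tlr1 had the largest log2 fold change in size of the 10 genes and did not pass. Tlr1 stood at 35.4, 34.8, 36.1, 47.4 and 19.1 CPM in WT and at 11.2, 22.5, 21.1, 21.8 and 22.6 in LAIR1KO. WT replicate 5 lay among the LAIR1KO values, and LAIR1KO replicate 1 lay well below all others. The log2 fold change was -0.80 ± 0.24 (edgeR adjusted p = 0.0620; 95% interval -1.31 to -0.29). Leaving out WT replicate 5 gave an adjusted p of 0.0168 (5.89% of genes called), DESeq2 gave 0.0132, and no filter on low counts gave 0.0313 (3.24% called).

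The partners of Tlr1 gave smaller values. Tlr2 ranged from 178 to 295 CPM in WT and from 159 to 219 in LAIR1KO (log2 fold change -0.26 ± 0.14, edgeR adjusted p = 0.281; 95% interval -0.55 to 0.03). Tlr6, the other partner of TLR2, stood at 26.7, 36.0, 26.8, 35.0 and 31.4 CPM in WT and 35.0, 28.4, 38.5, 42.0 and 27.7 in LAIR1KO. It was the member whose log2 fold change was above 0, at 0.14 ± 0.15 (adjusted p = 0.644; 95% interval -0.18 to 0.46). The groups overlapped for both genes.

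None of the endosomal receptors passed the edgeR test. Tlr13 ranged from 673 to 821 CPM in WT and from 584 to 844 in LAIR1KO, with a log2 fold change of -0.10 ± 0.11 (adjusted p = 0.639; 95% interval -0.33 to 0.13). Tlr7, which lies beside Tlr8 on the X chromosome (Tlr7 167304929 to 167330558, Tlr8 167242696 to 167264329, GRCm38, minus strand), stood at 158 to 197 CPM in WT. Its LAIR1KO values were 157, 127, 203, 165 and 115 CPM, with replicate 3 above every WT library and replicates 2 and 5 the lowest. The log2 fold change of Tlr7 was -0.26 ± 0.14 (adjusted p = 0.295; 95% interval -0.57 to 0.04).

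Tlr8 was closer between the groups, at 99.5 to 132 CPM in WT and 79.0 to 131 in LAIR1KO (log2 fold change -0.08 ± 0.13, edgeR adjusted p = 0.769; 95% interval -0.36 to 0.20). With library totals as the scale the log2 fold changes of Tlr8 and Tlr13 turned to 0.05 and 0.03. Tlr9 had 6 to 64 counts per library and the largest SE of the 10 genes. Its level was 2.09, 2.10, 2.31, 4.42 and 0.465 CPM in WT and 0.959, 1.82, 0.597, 2.18 and 1.59 in LAIR1KO. WT replicates 4 and 5 held both its highest and its lowest value, and the 95% interval of its log2 fold change ran from -1.76 to 0.41 (-0.68 ± 0.50, edgeR adjusted p = 0.477).

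The spread between libraries of a group differed among the members. In WT the coefficient of variation was 8.49% for Tlr7, 8.82% for Tlr13 and 10.6% for Cd14, against 29.2% for Tlr1 and 61.8% for Tlr9. Over the 10 libraries, with each group's mean taken off the log2 CPM, Tlr7 and Tlr13 varied together (Pearson r = 0.80), as did Tlr1 and Tlr9 (0.78), and Tlr1 and Tlr2 varied in opposite directions (-0.69). WT replicate 5 was the lowest WT library for Tlr1 and Tlr9 and the highest for Tlr2, and Tlr9 had only 6 to 64 counts per library. These correlations are descriptions over 10 libraries that share their scaling. The genes whose deviations were most like those of Cd14 were Chmp6, of the membrane-remodelling ESCRT-III machinery (r = 0.951), the ribosome biogenesis factor Nop53 (0.939) and the RNA exosome subunit Exosc4 (0.931), out of 8215 genes compared. None of these 3 passed the comparison of genotypes, with log2 fold changes of -0.01 ± 0.12, -0.16 ± 0.11 and 0.03 ± 0.12 (edgeR adjusted p = 0.987, 0.445 and 0.935).

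Ratios of partner genes within a library need no scaling between libraries, and 6 of them were compared after the data had been seen. There were 1.06, 1.07, 1.40, 1.29 and 1.36 counts of Cd14 per count of Tlr4 in WT, against 1.09, 0.932, 0.740, 0.573 and 0.651 in LAIR1KO. LAIR1KO replicate 1 lay just inside the WT range and the other 4 lay below it. The mean log2 ratio was lower by 0.66 in LAIR1KO, from 0.30 ± 0.19 to -0.37 ± 0.38 (two-sided exact permutation p = 0.0238, adjusted over the 6 ratios 0.0635). The ratio of Ly96 to Tlr4 was 0.453 to 0.557 in WT and 0.284 to 0.454 in LAIR1KO (exact permutation p = 0.0159, adjusted 0.0635), with 1 LAIR1KO library inside the WT range.

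The ratio of Tlr1 to Tlr6 was 1.33, 0.965, 1.35, 1.35 and 0.610 in WT and 0.321, 0.792, 0.548, 0.519 and 0.817 in LAIR1KO (exact permutation p = 0.0317, adjusted 0.0635). WT replicate 5 lay among the LAIR1KO libraries. The ratios of Tlr1 to Tlr2, Tlr6 to Tlr2 and Tlr7 to Tlr8 gave exact permutation p = 0.222, 0.111 and 0.317. None of the 6 ratios passed after adjustment, and the smallest p that 5 against 5 libraries allow is 0.00794.

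**Figure D3:**
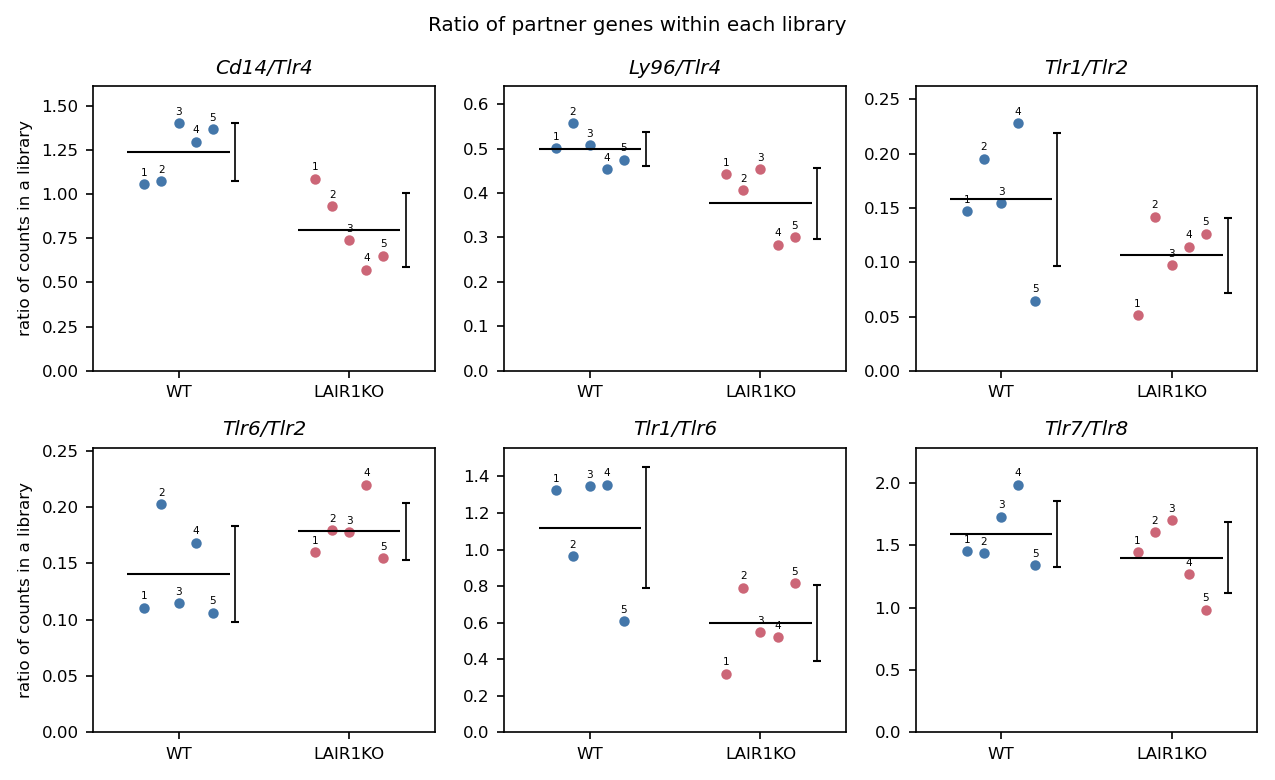
Ratio of the counts of 2 partner genes within each library, for 6 pairs, with the replicate number above each point, the mean as a line and the SD as a bar. The ratio of Cd14 to Tlr4 lies between 1.06 and 1.40 in WT and between 0.573 and 1.09 in LAIR1KO.

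Lbp, which encodes the lipopolysaccharide carrier that delivers to CD14, rose in LAIR1KO. It is on chromosome 2 (158306493 to 158332852, plus strand, GRCm38). Lbp stood at 2.59, 2.78, 2.90, 5.52 and 5.11 CPM in WT and at 10.9, 15.4, 8.88, 15.7 and 24.7 in LAIR1KO. All LAIR1KO libraries lay above all WT libraries, and 7.66% of all tested genes separated in either direction. The log2 fold change was 1.99 ± 0.31 (edgeR adjusted p = 0.00253), and it passed in all 20 alternative fits. Lbp was the 1 of 5 ligand transfer and accessory genes that passed, where 5.11% of all tested genes were higher. The summed progenitor markers were 3636, 3895, 3184, 5374 and 6712 CPM in LAIR1KO replicates 1 to 5, highest and lowest in the same libraries as Lbp. In WT replicates 1 to 5 they were 623, 1393, 524, 802 and 724 CPM, highest in replicate 2, whereas Lbp was highest in replicates 4 and 5. The part of these cells in the result was not tested.

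The summed resident macrophage markers moved in the same direction as Cd14. They were lower in every LAIR1KO library than in any WT library. In WT replicates 1 to 5 their sum was 2095, 1705, 1825, 1969 and 1559 CPM. There the sum was highest in replicate 1 and lowest in replicate 5, whereas Cd14 was highest in replicate 4 and lowest in replicate 2. In LAIR1KO replicates 1 to 5 the sum was 975, 893, 1084, 867 and 864 CPM. Replicates 1, 2, 4 and 5 stood in the same order as for Cd14, and replicate 3 had the highest sum with the median Cd14. Adgre1, which did not pass, was a large part of the sum and ranked these libraries likewise (748, 695, 905, 644 and 590 CPM). The called markers did not share an order. C1qa was highest in replicate 1, as Cd14 was, Axl in replicate 4 and Mrc1 in replicate 5. The part of resident macrophages in the fall of Cd14 was not tested. Neutrophil markers summed to 886 to 2353 CPM in WT and 1360 to 1921 in LAIR1KO, and 0 of 10 passed the edgeR test, with 1 at an unadjusted p under 0.05 and 0 called by DESeq2 or limma voom.

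**Figure D4:**
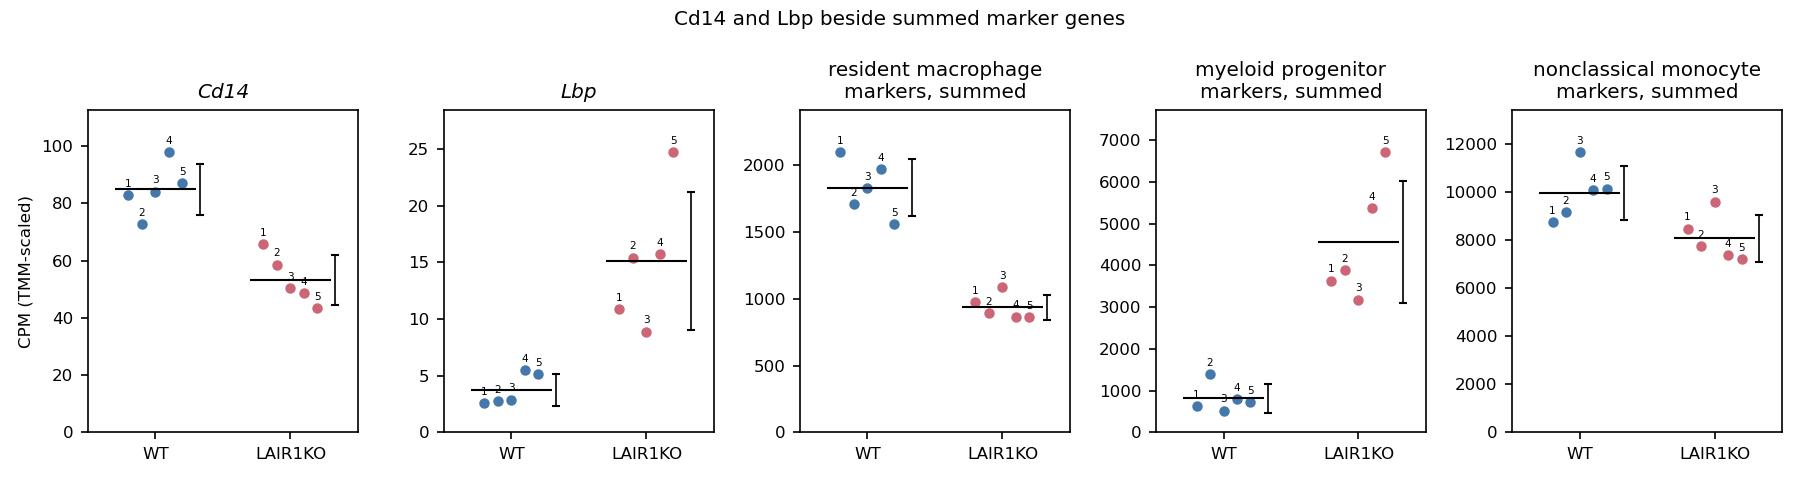
CPM of Cd14 and Lbp beside the summed CPM of resident macrophage, myeloid progenitor and nonclassical monocyte markers in each library, with means as lines and SD as bars. Cd14 and the macrophage sum are lower in all LAIR1KO libraries, and Lbp and the progenitor sum are higher.

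The remaining Toll-like receptors were scarce and did not pass the edgeR test. Tlr3, a receptor for double-stranded RNA, stood at 5.32 ± 3.30 CPM in WT and 3.54 ± 1.53 in LAIR1KO (log2 fold change -0.59 ± 0.51). An antisense gene overlaps 7.32% of its exons, and without a stated strand setting their reads cannot be told apart. Tlr11 and Tlr12, which bind profilin of parasites, had log2 fold changes of -0.55 ± 0.43 and -1.01 ± 0.43 (adjusted p = 0.506 and 0.189). The flagellin receptor Tlr5, with 0 to 34 counts per library, was too low to test. Among accessory surface proteins, Cd180 and its partner Ly86, a TLR4-like pair, had log2 fold changes of -0.29 ± 0.19 and -0.36 ± 0.13 (adjusted p = 0.407 and 0.135), and antisense Mast4 overlaps 4.04% of the exons of Cd180. The scavenger receptor Cd36 (-0.22 ± 0.18) and the beta-glucan receptor Clec7a (-0.39 ± 0.19) did not pass either.

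Genes that carry or trim the endosomal receptors included 4 that fell, 1 of 10 and 3 of 11 in the lists below, where 1.68% of all tested genes were lower. Of 10 chaperone and trafficking genes 1 was lower and 0 higher, with a median log2 fold change of -0.16. This was Unc93b1, at 1301 ± 91.4 CPM in WT and 1037 ± 102 in LAIR1KO (log2 fold change -0.33 ± 0.09, edgeR adjusted p = 0.0499). Its groups did not overlap, which held for 2.06% of all tested genes in this direction and 7.66% in either. The Unc93b1 call sat at the threshold and was lost in 9 of the 10 fits that left out 1 library. Of 11 endosomal protease and nuclease genes 3 were lower and 0 higher, with a median of -0.47.

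Lgmn, the asparagine endopeptidase, went from 402 ± 43.1 to 249 ± 27.8 CPM (log2 fold change -0.69 ± 0.10, edgeR adjusted p = 0.00201) and passed in every fit with 1 library left out. The cathepsins Ctss (-0.51 ± 0.13) and Ctsk (-2.17 ± 0.54) were also lower (adjusted p = 0.0320 and 0.0289). Ctsk was scarce, at 4.17 ± 1.03 and 0.920 ± 0.777 CPM, and was past the threshold in 5 of the 10 leave-one-out fits, Ctss in 2 of them. Neither passed without LAIR1KO replicates 4 and 5 together (adjusted p = 0.0939 and 0.112) and without WT replicates 1 and 4 together (0.142 and 0.0756). Unc93b1 did not pass in these fits either (adjusted p = 0.140 and 0.245).

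The signalling layer below the receptors showed 0 of 23 tested adaptor and kinase genes past the edgeR threshold, with a median log2 fold change of -0.05. Over all tested genes 6.79% passed and the median was 0.00. Of the 23 genes 2 had an unadjusted p under 0.05, and DESeq2 (11.5% of all its genes called) and limma voom each called 0. The smallest p-values there were those of Tab2, an adaptor of the kinase TAK1 (-0.43 ± 0.16, adjusted p = 0.141), and of the kinase Ikbke (0.58 ± 0.26, adjusted p = 0.213), whose exons overlap antisense genes. Among 12 negative regulators 1 fell, Trim30a (-0.42 ± 0.09, adjusted p = 0.0186), and the median was -0.14. For this list and the next, the share of all tested genes that were lower was 1.68%. Trim30a lost its call with library totals (adjusted p = 0.0800), with the replicate block (0.0801), without WT replicate 1 (0.0513) and without WT replicates 1 and 4 together (0.144). Among 12 genes for transcription factors, with the inhibitor gene Nfkbia, 1 fell, Irf7, which drives interferon genes (-0.59 ± 0.12, adjusted p = 0.00853), with a median of -0.28. It lost its call without WT replicates 1 and 4 together (adjusted p = 0.0789), and antisense Phrf1 overlaps 1.19% of its exons. Plasmacytoid dendritic cells are rich in Irf7, Tlr7 and Tlr9. Their markers summed to 212 to 292 CPM in WT and 153 to 207 in LAIR1KO. Of 5 tested markers 2 were lower (Siglech and Bst2), where 1.68% of all tested genes were lower. Ccr9 and Klk1 stayed near 0 in every library. The largest parts of the sum were Tcf4 (mean 113 CPM in WT and 94.7 in LAIR1KO) and Bst2 (92.0 and 60.1). Tcf4 did not pass (edgeR adjusted p = 0.191), and Siglech was scarcer (17.8 and 6.45 CPM). The part of plasmacytoid dendritic cells in these results was not tested.

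Inflammatory genes induced by these receptors were mostly low. Of 16 such genes 10 were abundant enough to test, and Il12b and Nos2 had 0 counts in every library. Cxcl10, a chemokine also induced by interferon, was lower, at 2.71 to 12.2 CPM in WT and 1.41 to 2.89 in LAIR1KO (log2 fold change -1.49 ± 0.42, edgeR adjusted p = 0.0499). WT replicate 1 was its highest library, 2 of the 10 leave-one-out fits had it past the threshold, and antisense Art3 overlaps 5.91% of its exons. The median over the 10 genes was -0.52, with 1 lower and 0 higher. Over all tested genes 1.68% were lower and 5.11% higher.

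**Figure D5:**
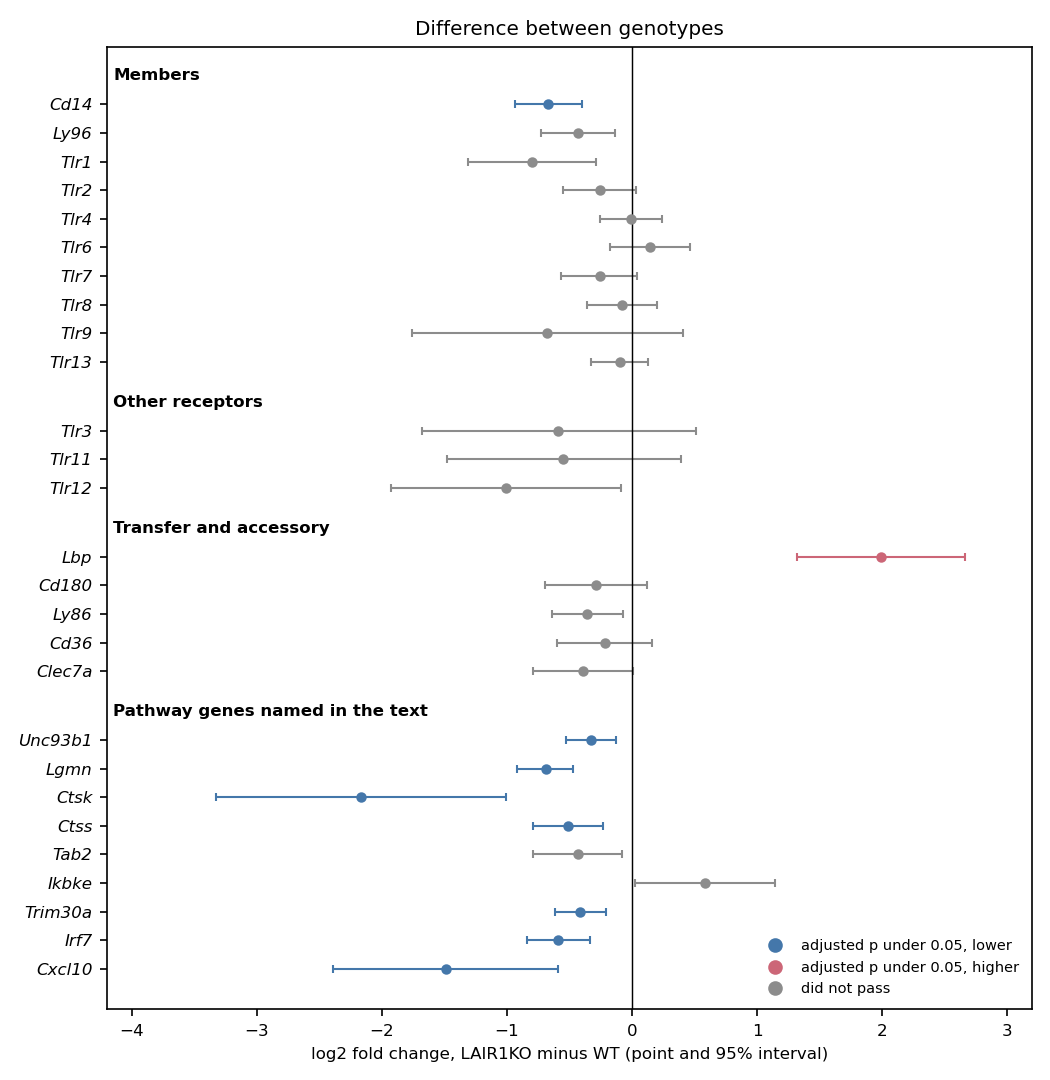
Log2 fold change (LAIR1KO minus WT) of the 10 genes, the other tested receptors, accessory proteins and named pathway genes, as points with 95% intervals. Coloured points passed an adjusted p under 0.05; among the 10 genes this is Cd14 at -0.67, and Lbp lies farthest to the right at 1.99.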

How the data were processed

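RNA was sequenced from 5 WT and 5 LAIR1KO samples of sorted nonclassical monocytes, with a low-input kit per the labels' protocols. The authors deposited raw read counts per Ensembl gene with no normalization. The submitters' processing notes name GSNAP and the build GRCm38.p5. No source used here states the counting tool, annotation release or strand setting. Columns were matched to samples by the identifier in each title. GENCODE M21 (GRCm38) gave symbols for 52489 of 52636 genes, exon lengths and transcript sequences.

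Counts were fitted in R 4.3.3 with edgeR 4.0.16 (filterByExpr with minimum count 10 and total 15, TMM scaling, quasi-likelihood test, no covariate), and p-values were adjusted over 13469 genes. No label says that libraries are separate animals, so p-values describe library spread, which may be technical. CPM uses TMM-scaled totals, and correlations used log2 (CPM + 0.5). The chi-square per degree of freedom between replicates was 14.4 or more, beyond sampling noise, so each was counted as 1 sample. The procedure was tested on simulated data that gave every gene the same dispersion (spread beyond counting noise), a simpler setting than these data. Alternatives were other scalings, filters, DESeq2 1.42.0, limma 3.58.1 with voom, a replicate block and libraries left out. Named genes were all members, all other receptors and accessory genes, and from each pathway list up to 5 genes past the threshold, or the 2 with the smallest p. For the member with the smallest p, the 3 genes with the highest r among genes of at least 10 CPM were added. Members and lists were chosen with earlier results of these data known.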

Additional observations from a re-analysis of the deposited data

Results flagged for a closer look

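In 3 of the 70 groups of 5 libraries checked (chance gives about 1 in 20), a single library stood far from the other 4. Tlr1 was at 11.2 CPM in LAIR1KO replicate 1, against 21.1 to 22.6 in the other LAIR1KO libraries. Tlr5 was at 2.35 CPM in WT replicate 4, against 0.149 to 0.753 in the other WT libraries, and Tlr11 was at 7.09 CPM in LAIR1KO replicate 4, against 1.72 to 3.19. Tlr5 and Tlr11 rest on few counts, at most 34 and 137 in a library.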

How the results depend on the processing

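Over all genes 914 passed (75.3% higher). The count was 1379 with library totals (90.1% higher, with the median of all genes at 0.13), 600 with the replicate block, 1516 with DESeq2, 376 without LAIR1KO replicates 4 and 5 and 338 without WT replicates 1 and 4, and 535 to 1170 with 1 library left out. Of the 10 members, 1 passed in the reported fit, 2 with no filter, 3 with DESeq2, 0 without WT replicates 1 and 4, and 1 to 2 with 1 library left out. The cause was not tested.

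Chaperone and trafficking calls numbered 0 with upper-quartile scaling, library totals, no filter, the replicate block or either pair of libraries removed, 2 with DESeq2, and 0 to 1 with 1 library left out. Protease and nuclease calls went from 3 to 1 with either pair removed, and were 1 to 5 with 1 library left out. Negative regulator calls were 0 with library totals, the replicate block and without WT replicates 1 and 4, and 0 to 1 with 1 library left out. Transcription factor calls were 2 with RLE or upper-quartile scaling, 4 with DESeq2, 0 without WT replicates 1 and 4, and 1 to 4 with 1 library left out. Inflammatory gene calls were 0 with library totals, the replicate block, limma voom and without LAIR1KO replicates 4 and 5, 2 with DESeq2, and 0 to 2 with 1 library left out. Adaptor and kinase calls stayed at 0 in every fit with 1 library left out.

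Among fold changes that did not pass, Tlr4 turned to 0.12 with library totals and 0.10 without WT replicates 1 and 4, and ran from -0.10 to 0.04 with 1 library left out. Tlr8 turned to 0.05 and Tlr13 to 0.03 with library totals, Tlr8 ran from -0.15 to 0.01 with 1 library left out, Tlr11 turned to 0.07 without WT replicates 1 and 4, and Cd36 to 0.04 without LAIR1KO replicates 4 and 5. Cd14 kept its call in all 10 fits with 1 library left out (-0.76 to -0.61, adjusted p up to 0.0231), and the Tlr1 to Tlr6 ratio passed unadjusted in 4 of them.

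The replicate numbers did not pair the samples: deviations of same-numbered libraries correlated at -0.100 to 0.057, and 0 of 5 WT libraries correlated best with their own number. The replicate block left Cd14 past the threshold (-0.68, adjusted p = 0.0312). Of the 10 positions in the order of levels, 8 to 10 held with 1 library left out. Counts were low for Tlr9 (6 to 64 per library), Tlr5 (0 to 34) and Ctsk (1 to 75), and how much of their spread is counting error was not tested.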
